A study of Mus musculus with 8 samples.

Results

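Histone-modifying enzymes and ATP-dependent chromatin remodellers were compared between ribosome-bound RNA of mouse hypocretin neurons and the RNA left behind in the same tissue extracts. The genes were taken by name: a probe set belonged to the set when its single gene symbol in the array's annotation began as a lysine methyltransferase (KMT or SETD), lysine demethylase (KDM), lysine acetyltransferase (KAT), histone deacetylase (HDAC), chromodomain helicase (CHD), SWI/SNF-related remodeller (SMARC) or AT-rich interaction domain protein (ARID). This gave 213 of 45037 probe sets and 83 of 18194 genes, in 8 families. The rule used no measured value. Of these, 117 probe sets for 73 genes were bright enough to test, against 17865 probe sets and 10398 genes on the whole array.

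The tissue came from a mouse line made with a bacterial artificial chromosome, labelled Hcrt JD218, on a background given as mixed Fvb and c57/bl6j. Hcrt encodes the arousal peptides made by hypocretin neurons of the lateral hypothalamus. Each sample pooled the diencephalon, that is thalamus and hypothalamus, of 5 adults of both sexes aged 6 to 12 weeks. Translating ribosome affinity purification pulls down tagged ribosomes of a chosen cell type with the messages they carry, and 4 such immunoprecipitates were hybridised beside the 4 unbound fractions of the same preparations. Both fractions of a preparation carry the transgene, and no precipitate from mice without it was analysed here. All 8 arrays thus share genotype, age range and tissue, and differ in fraction.

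Chromatin is opened and closed by 2 kinds of enzyme. Writers and erasers add or remove methyl and acetyl groups on histone tails, and remodellers use ATP to slide or evict nucleosomes. Many of these proteins are large, work as interchangeable paralogs inside multi-subunit complexes, and are required in dose-sensitive amounts in developing and adult neurons, so that loss of 1 copy of several of them causes intellectual disability.

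The promoters of 4 members are shown first. Among the acetyltransferase genes, Kat6b was dim on all 4 immunoprecipitate arrays and Kat5 had the highest difference of the set, while Kmt2c and Kmt2a, which encode MLL-type methyltransferases, belong to the family in which all tested genes were lower. Each line gives the 250 bases before the start listed first for the gene in RefSeq's GRCm38.p6 annotation, 5′ to 3′ along the gene. Capitals mark the GC box, GGGCGG or CCGCCC on the other strand, with overlapping matches counted apart.
Kmt2c, chr5:25498784-25499033, minus strand: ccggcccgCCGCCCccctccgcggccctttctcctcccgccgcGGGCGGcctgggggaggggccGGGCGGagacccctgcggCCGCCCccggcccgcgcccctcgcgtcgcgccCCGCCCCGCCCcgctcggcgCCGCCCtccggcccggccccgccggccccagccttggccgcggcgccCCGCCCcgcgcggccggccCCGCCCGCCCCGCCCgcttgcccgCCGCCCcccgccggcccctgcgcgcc
Kmt2a, chr9:44881290-44881539, minus strand: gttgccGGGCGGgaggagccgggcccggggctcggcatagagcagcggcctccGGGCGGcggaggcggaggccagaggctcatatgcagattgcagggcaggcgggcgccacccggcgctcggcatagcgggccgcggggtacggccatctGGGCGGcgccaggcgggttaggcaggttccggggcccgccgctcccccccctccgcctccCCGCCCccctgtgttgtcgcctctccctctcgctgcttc
Kat6b, chr14:21499520-21499769, plus strand: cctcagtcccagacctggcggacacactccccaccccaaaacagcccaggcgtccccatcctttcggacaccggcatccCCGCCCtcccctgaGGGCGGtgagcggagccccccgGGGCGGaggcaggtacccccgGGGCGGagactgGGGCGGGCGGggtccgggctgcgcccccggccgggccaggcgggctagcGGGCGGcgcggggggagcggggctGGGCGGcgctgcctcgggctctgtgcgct
Kat5, chr19:5610095-5610344, minus strand: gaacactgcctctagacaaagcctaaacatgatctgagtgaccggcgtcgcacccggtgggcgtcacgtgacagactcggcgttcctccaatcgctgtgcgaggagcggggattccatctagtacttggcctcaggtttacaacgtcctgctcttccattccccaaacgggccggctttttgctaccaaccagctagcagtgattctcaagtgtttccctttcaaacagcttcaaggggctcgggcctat
The Kmt2c stretch holds 12 GC boxes and 48 CG dinucleotides, that of Kmt2a 4 and 29, that of Kat6b 8 and 27, and that of Kat5 0 and 15. Of the 73 tested members 55 had an entry, and 37 of these 55 (67.3%) held at least 1 GC box. The share was 61.1% over 8490 tested genes and 32.9% over all 27025 promoters of this length in the table. It was 22 of 35 among the members called lower below and 15 of 20 among those not called. The median number of CG dinucleotides was 18 in members, 17 in tested genes and 6 in all promoters. The TATA box (TATAAA, or TTTATA on the other strand) stood in 4 of the 55 member promoters, or 7.27%, against 5.97% of tested genes and 13.0% of all. These matches describe the letters in the window and no binding.

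A gene was called when limma's Benjamini-Hochberg adjusted p over all tested probe sets was below 0.05 and the difference at least 2-fold, and each gene was represented by its brightest tested probe set. By this rule 49 of the 73 genes (67.1%) were lower in the immunoprecipitate and 0 were higher. Among all tested genes 44.2% were lower and 4.74% higher. With the preparation as a replicate block 49 members were lower, beside 44.8% of all genes. The adjusted p among the 49 ran from 3.2e-06 to 0.037. Of the 24 others 16 had an adjusted p of 0.05 or more. A further 6, Kdm1a, Hdac2, Hdac6, Smarcal1, Smarcb1 and Arid4a, were lower, and 2 were higher, at an adjusted p below 0.05 but under 2-fold. The 2 higher, Kat5 and Setd6, were also the members with an unadjusted limma p below 0.05 in that direction, which 9.32% of all tested genes had.

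The median member differed by -1.47 log2 between immunoprecipitate and unbound fraction, or by -1.37 with values under the filter's linear minimum of 50 raised to it, and the median tested gene differed by -0.85. Over the preparations, 60 of 73 members were lower in 4 of 4 and 3 were higher in 4 of 4, beside 63.9% and 12.9% of all genes. The arrays of the fractions did not overlap for 51 members that were lower, which is a share to be read beside 50.6% of all genes, and for 2 that were higher, beside 6.53%. A gene could pass the brightness filter through its unbound arrays alone. 5 of the 49, Kdm1b, Kdm4b, Kat6b, Chd1 and Chd7, did so. Calls and p-values used values under 50 as they stood, whereas a fold given as at least a value has them raised to 50. Of the 49 calls 14 have such a fold, and it can be under 2 for a called gene. Over the 58 members at or above 50 on all 8 arrays, 35 were lower and the median was -1.26, where 37.4% of 8417 such genes were lower and their median was -0.67.

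The number of these calls rests on how the fractions are put on 1 scale. Centring each array on its median moved the all-gene median from -0.85 to 0.08, and then 23 members were lower and 3 higher, beside 19.6% and 20.4% of all genes. Quantile normalization gave 22 and 3, beside 20.5% and 16.5%. The 3 higher on both scales were Setd6, Kat5 and Hdac8. Of the 49 calls 21 were kept on both scales and 25 were lost on both: Kmt2b, Kmt5a, Kmt5b, Setd1a, Setd1b, Setd2, Setd4, Kdm2a, Kdm2b, Kdm3a, Kdm5a, Kdm5c, Kat7, Hdac4, Hdac9, Chd2, Chd3, Chd5, Chd8, Smarca2, Smarca4, Smarcc1, Smarcc2, Smarcd1 and Arid2. That of Chd6 was lost after median centring, and those of Kdm4b and Kdm4c after quantile normalization. A scale set on spiked poly-A controls put all 73 lower, as it did 94.5% of all genes. All 49 called genes kept a negative sign on these scales, and positions relative to the all-gene median, given for each family below, do not move with any constant shift.

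In whole-tissue fractions, fewer cells of a type and less RNA per cell cannot be told apart, and here neither can be told apart from weaker binding to ribosomes. The 6 markers of hypocretin neurons were all higher in the immunoprecipitate, with a mean log2 level between 12.02 and 12.77 on its arrays and between 8.24 and 8.50 on the unbound ones. The marker lists were chosen with earlier results of these data known. Their directions describe the fractions and are no test of purity. Markers of other cells were lower. A level of 0 does not occur on these arrays, whose lowest deposited log2 values were 2.21 (immunoprecipitate) and 2.14 (unbound). All 7 tested oligodendrocyte genes, 8 astrocyte genes, 6 microglial genes, 2 endothelial genes and 7 neuropeptide genes of other neurons were called lower. The oligodendrocyte mean ran from 9.72 to 11.22 on the immunoprecipitate arrays and from 12.67 to 13.05 on the unbound arrays, and the astrocyte mean from 6.46 to 8.06 and from 10.02 to 10.22. The immunoprecipitate of preparation 1 had the highest glial means, and it was also the highest immunoprecipitate array for 35 of the 73 members (47.9%, against 32.0% of all genes). Of the unbound arrays, that of preparation 4 was highest for 39 members (53.4%, against 36.6%). The part of carried-over RNA in these values was not tested. Without both arrays of preparation 1, a choice made after seeing the data, 46 members were lower and 1 was higher.

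**Figure D1:**
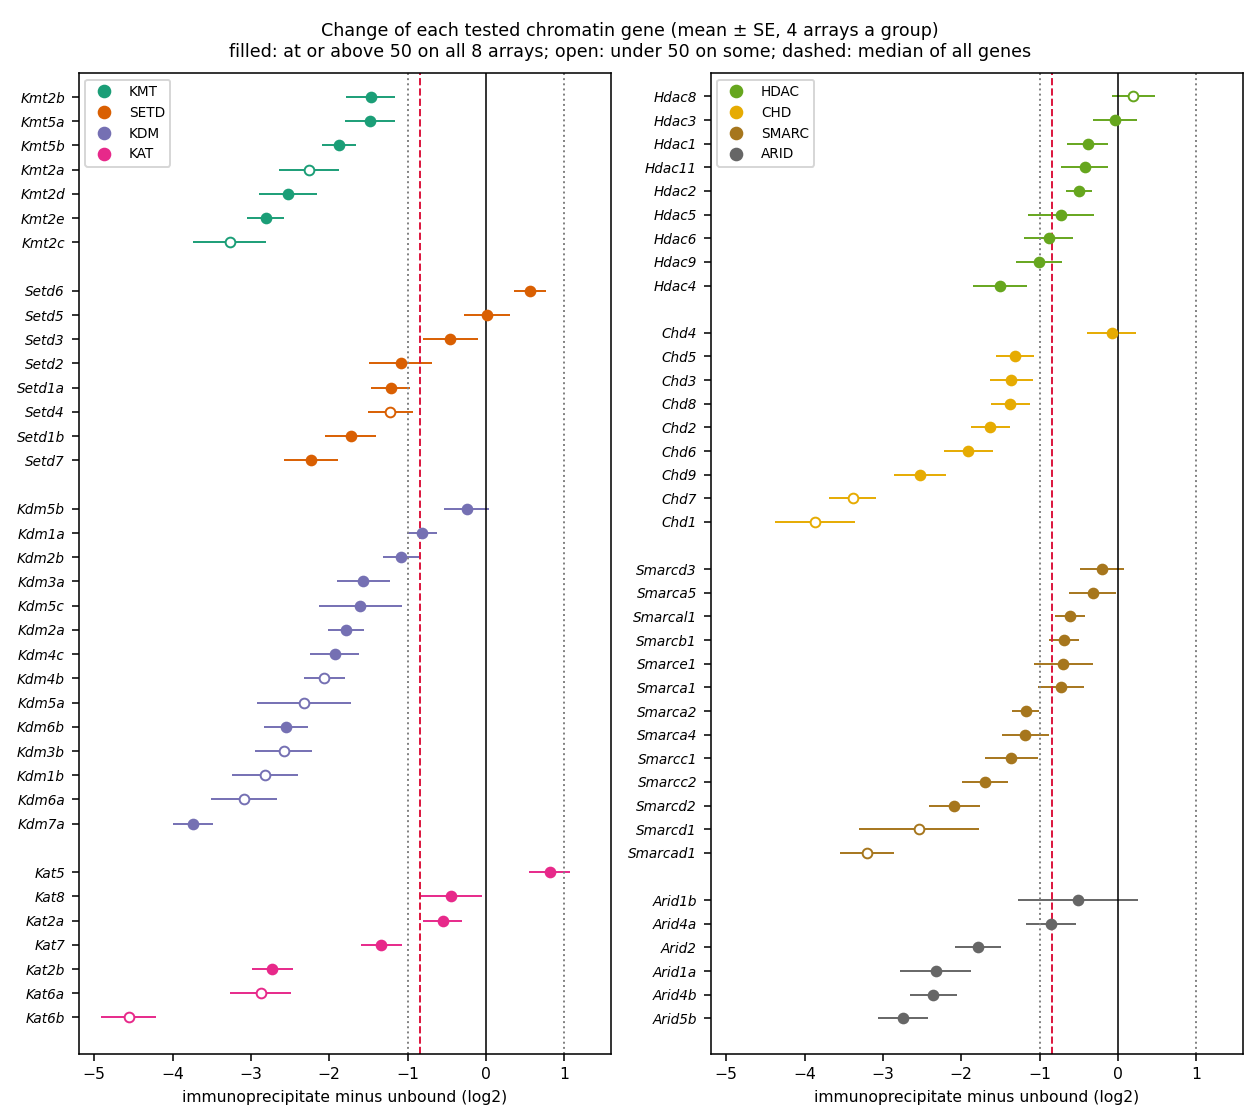
Difference between immunoprecipitate and unbound fraction for each of the 73 tested genes, on the log2 scale with its standard error (4 arrays per fraction), ordered within each family; filled points reached a linear value of 50 on all 8 arrays and open points did not, so that an open point is no bound. Dotted lines mark 2-fold and the dashed line the median of all tested genes, -0.85; 51 points lie to its left, including all 7 of the KMT family and 3 of the 9 of the HDAC family.

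The families took different places in this range, and each count is to be read beside the 44.2% of all genes that were lower. All 7 tested KMT genes were called lower (family median -2.26), as were 8 of 9 CHD genes (-1.63), 12 of 14 KDM genes (-2.00) and 4 of 6 ARID genes (-2.06). In the SETD family 5 of 8 were lower (-1.15), in the KAT family 4 of 7 (-1.34) and in the SMARC family 7 of 13 (-1.18). The HDAC family had 2 of 9 lower, with a median of -0.49. Relative to the all-gene median, KMT stood at -1.41, ARID at -1.21, KDM at -1.15, CHD at -0.78, KAT at -0.49, SMARC at -0.33, SETD at -0.30 and HDAC at 0.35. The HDAC median turned positive after median centring, at 0.43, and lay at 0.00 after quantile normalization, where SETD stood at 0.03 relative to all genes. No test of the difference between families was made, since their genes are not replicates.

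**Figure D2:**
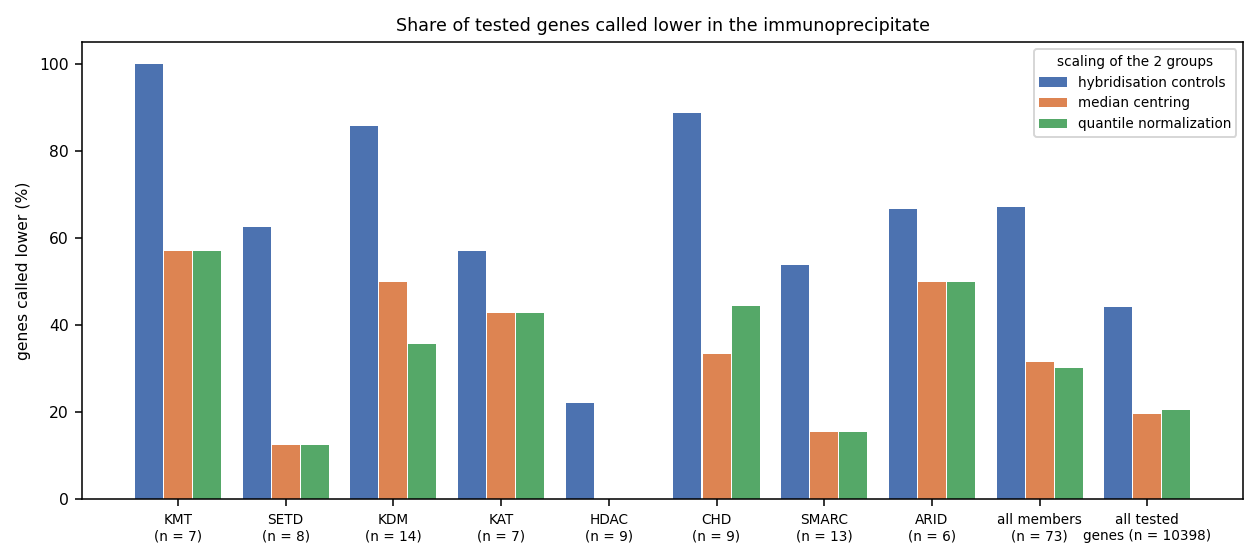
Share of the tested genes in each family called lower in the immunoprecipitate by the rule above, in percent, on 3 scales: set on the hybridisation controls, centred on each array's median, or quantile normalized. The KMT family is at 100% on the first scale and 57.1% on both others, the HDAC family at 22.2% and 0%, and all tested genes at 44.2%, 19.6% and 20.5%.

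The KMT names cover the MLL-type enzymes (Kmt2 genes), which methylate histone H3 at promoters and enhancers of active genes, and the Kmt5 genes, which methylate histone H4. The log2 levels of Kmt2e in preparations 1 to 4 were 11.26, 11.65, 11.57 and 11.69 on the unbound arrays and 9.33, 8.36, 8.57 and 8.66 on the immunoprecipitate arrays. Kmt2d gave 9.47, 9.85, 10.23 and 9.17 and 7.87, 7.62, 6.61 and 6.52 in the same order. Both genes were lower on every immunoprecipitate array than on any unbound array. Kmt2e, whose MLL5 protein is thought to read rather than write the mark, changed by -2.81 ± 0.24 (SE) on the log2 scale, or 7.03-fold lower (limma adjusted p = 1.2e-05). Kmt2d, an enhancer methyltransferase whose loss causes Kabuki syndrome, was 5.76-fold lower (-2.53 ± 0.38 SE, limma adjusted p = 0.00026).

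Kmt2c is the closest relative of Kmt2d and acts in the same complexes. Unbound and immunoprecipitated log2 levels of Kmt2c were 9.31, 9.75, 8.98 and 9.73, and 7.59, 5.90, 5.99 and 5.20, for preparations 1 to 4. The immunoprecipitate arrays spread widely here, and only that of preparation 4 lay under 50, so the fold is a bound of at least 8.96 (limma adjusted p = 0.00019). 2 more Kmt2c probe sets were at least 8.83- and 12.0-fold lower. Kmt2a, the founding MLL gene, was at least 4.14-fold lower (limma adjusted p = 0.00053), since just 1 immunoprecipitate array reached 50, and Kmt2b 2.77-fold. The unbound array of preparation 4 read 8.86 for Kmt2a against 7.24 to 7.54 on the others. Kmt5b and Kmt5a, which place the dimethyl and monomethyl states on H4, were 3.67- and 2.80-fold lower. Kmt5b was the tightest of the family, with unbound arrays between 8.45 and 8.77 and immunoprecipitate arrays between 6.58 and 6.93. Kmt5c reached 50 on 1 of 8 arrays and was not tested.

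**Figure D3:**
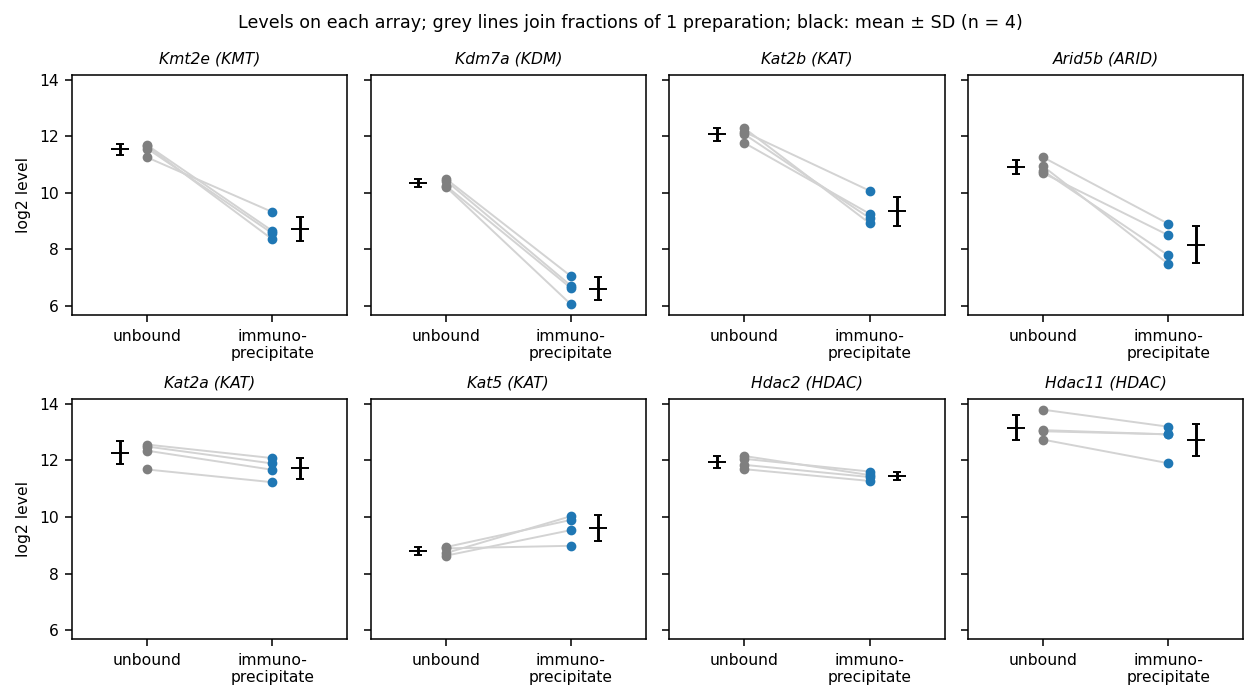
Log2 level on each array for 4 members called lower (upper row) and 4 not called (lower row); grey lines join the fractions of 1 preparation and black marks give the mean and SD of 4 arrays. Every line falls in the upper row, the 4 lines of Kat5 rise, and those of Kat2a, Hdac2 and Hdac11 fall by less than 1 log2 unit; levels of different probe sets are not comparable.

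SETD genes share the catalytic SET domain and act on histones and on other proteins. Setd1a and Setd1b, the catalytic subunits of the main promoter H3 methyltransferase complex, were 2.32- and 3.30-fold lower. Setd2, the writer of the mark left along transcribed gene bodies, was 2.12-fold lower with a limma adjusted p of 0.037, the highest of the 49, and its groups overlapped. Over preparations 1 to 4, Setd7 stood at 12.45, 11.96, 11.25 and 12.58 in the unbound fractions and at 10.45, 9.41, 9.37 and 10.06 in the immunoprecipitates (log2). All 4 immunoprecipitate values of Setd7, a monomethyltransferase with many non-histone substrates, lay below the lowest unbound value, a difference of -2.24 ± 0.34 (SE) or 4.71-fold (limma adjusted p = 0.00032). Setd4 was at least 2.20-fold lower.

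3 SETD genes were not called. Log2 levels of Setd6 were 8.98, 8.99, 8.76 and 9.04 on the unbound and 9.70, 9.50, 9.22 and 9.60 on the immunoprecipitate arrays. Setd6, which methylates the NF-kappaB subunit RelA, was higher in 4 of 4 preparations, the groups did not overlap, and the difference was 0.56 ± 0.20 (SE), or 1.48-fold (limma adjusted p = 0.033). Its second tested probe set gave 0.02 (limma adjusted p = 0.97). On the poly-A controls the first gave -1.40. Setd3, an actin histidine methyltransferase, gave -0.45 ± 0.35 (limma adjusted p = 0.28). Setd5 gave 0.01 ± 0.29 from its brightest probe set, while a second was at least 1.81-fold lower (limma adjusted p = 2.0e-05). The mean of both was -1.14, so that the sign of Setd5 depends on the probe set.

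Demethylases fall into the flavin-dependent Kdm1 enzymes and the JmjC enzymes, which need iron and oxoglutarate. Kdm7a read 10.50, 10.44, 10.25 and 10.22 in the unbound fractions of preparations 1 to 4 and 7.05, 6.72, 6.63 and 6.06 in the immunoprecipitates (log2). Kdm7a, a PHD-finger JmjC enzyme that removes repressive methyl marks, stood apart on all arrays: it was 13.3-fold lower (-3.74 ± 0.26 SE, limma adjusted p = 3.2e-06), and its difference within a preparation ran from -4.16 to -3.45. A second Kdm7a probe set was at least 6.23-fold lower.

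Kdm6a (UTX) and Kdm6b (JMJD3) erase the methyl mark that Polycomb writes. In the order of the preparations, Kdm6b gave log2 levels of 9.73, 9.67, 9.88 and 9.77 unbound and 7.80, 6.86, 7.48 and 6.71 immunoprecipitated. The unbound arrays lay close together, all above the immunoprecipitate arrays, and Kdm6b was 5.87-fold lower (limma adjusted p = 4.6e-05). Unbound and immunoprecipitated log2 levels of Kdm6a were 8.05, 7.66, 7.52 and 7.69, and 6.06, 4.27, 4.11 and 4.14, for preparations 1 to 4. For Kdm6a, whose gene lies on the X chromosome, just the immunoprecipitate of preparation 1 reached 50, and the fold was at least 3.98 (limma adjusted p = 0.00017). Its second probe set was at least 3.66-fold lower.

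The remaining called demethylases act on other methyl marks of histone H3. Those of the promoter mark were Kdm5a, at least 4.22-fold lower, and Kdm5c, 3.03-fold lower (limma adjusted p = 0.024), a gene of X-linked intellectual disability. The groups of this Kdm5c probe set overlapped. Further Kdm5c probe sets were 4.46-fold and at least 6.42-fold lower, without overlap. Kdm5a spread from 4.65 to 7.85 over its immunoprecipitate arrays. Those of the heterochromatin mark were Kdm3a at 2.95-fold, Kdm3b at least 3.68-fold, Kdm4b at least 2.17-fold and Kdm4c at 3.81-fold. Kdm2a and Kdm2b, which bind unmethylated CpG islands through a CXXC finger, were 3.44- and 2.12-fold lower.

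The flavin enzymes differed in size. Over preparations 1 to 4, Kdm1a stood at 10.76, 10.32, 10.51 and 10.84 in the unbound fractions and at 9.86, 9.64, 9.89 and 9.79 in the immunoprecipitates (log2). Kdm1a (LSD1), the demethylase of the CoREST corepressor, was lower on each immunoprecipitate array than on any unbound array, but by -0.81 ± 0.19 (SE), under 2-fold (limma adjusted p = 0.0040). Kdm1b, its relative, was at least 3.42-fold lower. Kdm5b was not called from its brightest probe set (-0.25 ± 0.28 SE, limma adjusted p = 0.47), while a second probe set was at least 2.83-fold lower. Kdm4a, Kdm4d, Kdm5d and Kdm8 had no tested probe set.

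Acetyltransferases ranged from a gene under the brightness minimum on all immunoprecipitate arrays to the member with the highest difference. Log2 levels of Kat6b were 7.99, 7.90, 8.75 and 7.95 on the unbound and 4.53, 3.17, 3.24 and 3.41 on the immunoprecipitate arrays. All immunoprecipitate values of Kat6b, whose MORF protein acetylates histone H3, were under 50, so the fold is at least 5.71 (limma adjusted p = 5.9e-06). Kat6a read 9.80, 9.41, 9.18 and 9.24 in the unbound fractions of preparations 1 to 4 and 7.28, 6.64, 6.83 and 5.37 in the immunoprecipitates (log2). Its relative Kat6a (MOZ) was at least 7.02-fold lower, as 3 immunoprecipitate arrays reached 50 (limma adjusted p = 0.00015). Kat7, another member of this MYST group, was 2.53-fold lower.

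The Kat2 genes encode the alternative catalytic subunits GCN5 and PCAF of the SAGA and ATAC coactivators. In the order of the preparations, Kat2b gave log2 levels of 12.16, 12.07, 11.77 and 12.29 unbound and 10.08, 9.11, 9.26 and 8.93 immunoprecipitated. Kat2a gave 11.68, 12.35, 12.49 and 12.56 and 11.23, 11.67, 11.89 and 12.09 in the same order. For Kat2b (PCAF) the fractions were far apart, with 6.61-fold lower values in the immunoprecipitate (-2.73 ± 0.26 SE, limma adjusted p = 2.3e-05). For Kat2a (GCN5) they overlapped, and the difference of -0.55 ± 0.25 (SE) did not pass the test (limma adjusted p = 0.076), although it was lower in 4 of 4 preparations. A second Kat2a probe set gave -0.58 (limma adjusted p = 0.18).

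Over preparations 1 to 4, Kat5 stood at 8.89, 8.72, 8.93 and 8.63 in the unbound fractions and at 8.98, 10.03, 9.90 and 9.53 in the immunoprecipitates (log2). Kat5, whose TIP60 protein is the acetyltransferase of the NuA4 complex and of the response to DNA breaks, was higher in 4 of 4 preparations, by 0.09 in the first and by 0.91 to 1.31 in the others. The difference was 0.82 ± 0.26 (SE), or 1.76-fold, and passed the p threshold but not 2-fold (limma adjusted p = 0.020). Its second probe set gave 0.76 (limma adjusted p = 0.026). Without unbound replicate 1 Kat5 was called higher, and on the poly-A controls it gave -1.15. Kat8 (MOF), which acetylates histone H4, gave -0.44 ± 0.39 (limma adjusted p = 0.35).

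On the hybridisation control scale the histone deacetylases had the family median nearest to 0, but after median centring those of SETD, SMARC and KAT were nearer. Class I comprises Hdac1, Hdac2 and Hdac3, the catalytic cores of nuclear corepressors, and Hdac8. Log2 levels of Hdac2 were 11.84, 12.06, 12.16 and 11.69 on the unbound and 11.41, 11.61, 11.48 and 11.28 on the immunoprecipitate arrays. Each preparation was lower in the immunoprecipitate and the groups did not overlap, but the difference of -0.49 ± 0.17 (SE) was under 2-fold (limma adjusted p = 0.025). A second Hdac2 probe set gave 0.50 (limma adjusted p = 0.056), so the direction of Hdac2 is not settled. Hdac1 gave -0.38 ± 0.26, Hdac3 -0.03 ± 0.28 and Hdac8 0.20 ± 0.27 (SE), with limma adjusted p of 0.22, 0.93 and 0.54.

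Class IIa enzymes shuttle between nucleus and cytoplasm under the control of neuronal activity. Hdac4 read 8.06, 8.30, 7.72 and 9.10 in the unbound fractions of preparations 1 to 4 and 6.56, 6.56, 7.40 and 6.63 in the immunoprecipitates (log2). Hdac4 was 2.84-fold lower (limma adjusted p = 0.0032), although its immunoprecipitate of preparation 3 stood above the other 3. Hdac9 was 2.01-fold lower (limma adjusted p = 0.013) and lost its call with no shift between the fractions, at -0.98. Hdac5 gave -0.73 ± 0.43 (limma adjusted p = 0.16). Hdac6, the tubulin deacetylase of the cytoplasm, gave -0.88 ± 0.31, under 2-fold (limma adjusted p = 0.030).

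In the order of the preparations, Hdac11 gave log2 levels of 12.74, 13.07, 13.03 and 13.80 unbound and 11.90, 12.92, 12.92 and 13.20 immunoprecipitated. Hdac11, the only class IV enzyme, overlapped between the fractions and gave -0.42 ± 0.30 (SE, limma adjusted p = 0.25), and a second probe set gave -0.25 (limma adjusted p = 0.33). Hdac7 and Hdac10 had no tested probe set. The Hdac7 probe sets read at most 5.38 on the immunoprecipitate arrays and at most 3.35 on the unbound arrays, under the minimum on each of them.

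Chromodomain helicases split into 3 subfamilies. Chd1 and Chd2 follow elongating polymerase. Unbound and immunoprecipitated log2 levels of Chd1 were 7.70, 7.72, 9.01 and 7.11, and 5.39, 3.38, 3.67 and 3.62, for preparations 1 to 4. The immunoprecipitate arrays of Chd1 were all under 50, and that of preparation 1 stood above the others. Chd1 was at least 4.76-fold lower (limma adjusted p = 0.00013), and Chd2, mutated in childhood epilepsy, 3.09-fold.

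Chd3, Chd4 and Chd5 are the alternative motors of the NuRD complex, which joins remodelling to deacetylation. Chd3 and the neuronal Chd5 were 2.57- and 2.48-fold lower (limma adjusted p = 0.0016 and 0.0011). Over preparations 1 to 4, Chd4 stood at 8.42, 7.82, 7.64 and 8.54 in the unbound fractions and at 7.54, 8.15, 8.56 and 7.85 in the immunoprecipitates (log2). These Chd4 values overlapped, with a difference of -0.08 ± 0.31 (SE, limma adjusted p = 0.83), but a second Chd4 probe set was at least 2.98-fold lower (limma adjusted p = 0.00044). The 2 probe sets of Chd4 thus gave different calls.

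Chd6 to Chd9 form another subfamily, which holds Chd7, the gene of CHARGE syndrome, and Chd8, an autism gene. Log2 levels of Chd7 were 7.22, 7.93, 8.40 and 7.65 on the unbound and 4.71, 4.51, 4.51 and 3.91 on the immunoprecipitate arrays. None of the immunoprecipitate values of Chd7 reached 50, and the fold was at least 4.48 (limma adjusted p = 1.6e-05). Chd9 read 9.53, 9.72, 9.64 and 9.58 in the unbound fractions of preparations 1 to 4 and 8.04, 7.11, 6.46 and 6.75 in the immunoprecipitates (log2). Chd9 was 5.75-fold lower (limma adjusted p = 0.00012), Chd6 3.75-fold and Chd8 2.59-fold. In each of these 4 genes the groups did not overlap.

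SMARC genes encode subunits of the BAF complexes and some remodellers outside them. The BAF motors Smarca2 (BRM) and Smarca4 (BRG1) were lower by nearly the same amount. In the order of the preparations, Smarca2 gave log2 levels of 12.09, 12.10, 11.97 and 12.16 unbound and 10.65, 11.11, 10.75 and 11.11 immunoprecipitated. Smarca4 gave 10.69, 11.38, 11.24 and 11.61 and 9.28, 10.44, 10.40 and 10.06 in the same order. Each was lower in 4 of 4 preparations without overlap, Smarca2 2.26-fold (limma adjusted p = 0.00022) and Smarca4 2.27-fold (limma adjusted p = 0.0061).

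Of the core scaffolds, Smarcc1 and Smarcc2 were 2.56- and 3.23-fold lower. Smarcb1 gave -0.68 ± 0.19 (limma adjusted p = 0.0097), under 2-fold, and Smarce1 -0.69 ± 0.38 (limma adjusted p = 0.13), with a second Smarce1 probe set at 0.09. The Smarcd genes encode the alternative BAF60 subunits. Over preparations 1 to 4, Smarcd2 stood at 10.62, 10.60, 10.86 and 9.97 in the unbound fractions and at 9.34, 8.12, 8.22 and 8.03 in the immunoprecipitates (log2). Smarcd2 was 4.25-fold lower (limma adjusted p = 0.00038). Smarcd1 was at least 2.92-fold lower, though its preparation 4 stood above the other 3 in both fractions, with 9.24 unbound and 7.20 immunoprecipitated. The groups of Smarcd1 overlapped. Log2 levels of Smarcd3 were 11.08, 11.83, 11.95 and 12.04 on the unbound and 10.93, 11.54, 11.60 and 12.01 on the immunoprecipitate arrays. Smarcd3, the variant tied to differentiated neurons and muscle, differed by -0.20 ± 0.28 (SE, limma adjusted p = 0.54).

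The ISWI motors Smarca1 and Smarca5 gave -0.73 ± 0.30 and -0.32 ± 0.30 (SE), with limma adjusted p of 0.055 and 0.37. Of 2 further Smarca5 probe sets, 1 was 2.35-fold lower (limma adjusted p = 0.0015) and 1 gave -0.76 (limma adjusted p = 0.15). Smarcad1 read 9.57, 8.58, 8.70 and 9.05 in the unbound fractions of preparations 1 to 4 and 6.65, 5.48, 5.48 and 5.48 in the immunoprecipitates (log2). Smarcad1, a remodeller that restores heterochromatin after replication, was at least 8.50-fold lower from these values (limma adjusted p = 4.6e-05), and its second probe set gave -0.05 (limma adjusted p = 0.93). The 3 lowest immunoprecipitate values of Smarcad1 were identical to 2 decimals. Smarcal1, an annealing helicase at stalled replication forks, gave -0.61 ± 0.19 (limma adjusted p = 0.018), under 2-fold.

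ARID genes encode DNA-binding subunits that target BAF, PBAF and Sin3 complexes. In the order of the preparations, Arid1a gave log2 levels of 10.27, 9.15, 8.94 and 10.66 unbound and 8.28, 6.69, 7.29 and 7.46 immunoprecipitated. Arid1b gave 10.23, 8.89, 9.54 and 8.31 and 10.81, 8.80, 8.78 and 6.56 in the same order. Arid1a, the BAF subunit most often mutated in cancer, was 5.01-fold lower (limma adjusted p = 0.0013). Arid1b, its paralog and a frequent intellectual disability gene, spread from 6.56 to 10.81 over the immunoprecipitate arrays and gave -0.51 ± 0.77 (SE, limma adjusted p = 0.58). Arid2, the PBAF subunit, was 3.45-fold lower, and its 3 tested probe sets had the same call.

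Arid4a and Arid4b are subunits of the Sin3 corepressor. Over preparations 1 to 4, Arid4b stood at 10.68, 10.73, 9.97 and 10.69 in the unbound fractions and at 8.87, 8.15, 7.78 and 7.85 in the immunoprecipitates (log2). Arid4a gave 9.18, 9.06, 8.83 and 9.42 and 8.60, 7.36, 8.71 and 8.40 in the same order. Arid4b was 5.12-fold lower (limma adjusted p = 0.00010), whereas Arid4a gave -0.85 ± 0.32 (SE, limma adjusted p = 0.039), under 2-fold. Arid5b read 11.26, 10.70, 10.78 and 10.94 in the unbound fractions of preparations 1 to 4 and 8.91, 8.50, 7.79 and 7.49 in the immunoprecipitates (log2). Arid5b, a partner of the demethylase PHF2, was 6.72-fold lower without overlap (limma adjusted p = 6.6e-05). Arid3a, Arid3b and Arid5a were under 50 on all 8 arrays.

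Since paralogs replace each other within a complex, the within-array difference of 2 paralogs was also compared between the fractions, a measure that no scaling constant between the fractions can move. Both members were tested in 26 of 34 listed pairs. In an exact two-sided permutation test over the 70 assignments of 8 arrays, 9 pairs reached the smallest possible p, 0.029, and after Benjamini-Hochberg adjustment over the 26 none passed 0.05 (smallest adjusted p = 0.083). At least 15 of the 26 would have had to reach that smallest p for any to pass, so the adjusted values do not show that the pairs moved alike. Of the 14 pairs at or above 50 on all arrays, 3 were at the smallest p. The change of Kat2a exceeded that of Kat2b by 2.18 on the log2 scale, and by 1.63 to 2.88 in the preparations. Arid4a exceeded Arid4b by 1.50, and Chd4 exceeded Chd5 by 1.23, with the probe set of Chd4 that was not called. Each of the 3 kept its direction in 4 of 4 preparations. With the mean of probe sets the Chd4 and Chd5 difference was 0.26 (exact p = 0.46).

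A limma test of the same differences, added after the data were seen, placed 13 of 26 pairs at an adjusted p below 0.05, of which 5 had both genes measured on all arrays. The 5 were Kat2a and Kat2b, Arid4a and Arid4b, Chd3 and Chd4, Chd4 and Chd5 and the pair Chd8 and Chd9. Both Chd4 pairs rest on the probe set that was not called, and with the mean of probe sets Chd3 minus Chd4 moved from -1.28 to -0.31 (exact p = 0.34). Other differences lay nearer to 0. Smarca2 and Smarca4 differed by 0.00, with a 95% interval from -0.74 to 0.74, and Hdac1 and Hdac2 by 0.11, from -0.47 to 0.69. The Hdac1 and Hdac2 difference moved with the processing: quantile normalization gave 0.53 (exact p = 0.029, the smallest possible) and the mean of probe sets -0.39 (exact p = 0.17).

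**Figure D4:**
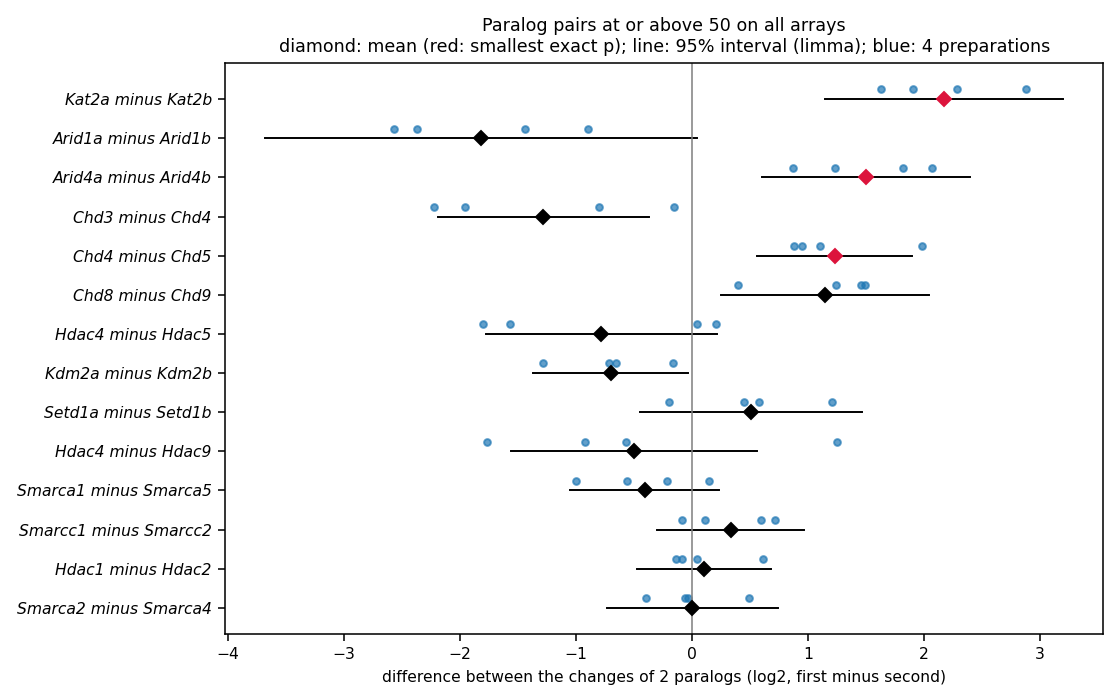
Difference between the log2 changes of 2 paralogs for the 14 pairs measured on all arrays: diamonds give the mean, lines the 95% interval from limma, blue points the 4 preparations, and red diamonds the pairs at the smallest exact p. The Kat2a and Kat2b pair lies farthest from 0, at 2.18, and the Smarca2 and Smarca4 pair at 0.00.

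Probe sets of a gene read different parts of its transcripts. For 37 members more than 1 probe set was tested, and the calls were alike in 31 and unlike in 6: Chd4, Kdm2b, Kdm5b, Setd5, Smarca5 and Smarcad1. No gene had calls in opposite directions, and the median range between probe sets of a gene was 0.53 on the log2 scale. Counted by probe set, 80 of 117 were lower and 0 higher, where 45.1% and 4.88% of all tested probe sets were. Amplification by 2 cycles favours the 3′ end. The excess of 3′ over 5′ signal averaged 3.71 ± 0.46 (immunoprecipitate) and 3.39 ± 0.33 (unbound) for Actb, and 2.80 ± 1.14 and 2.34 ± 0.68 for Gapdh (log2, SD, n = 4, exact permutation p = 0.31 and 0.46). For Gapdh both arrays of preparation 4 were highest, at 4.50 and 3.36. What this contributes to differences between probe sets was not tested.

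Chromatin genes are long, and across all tested genes the change went with genomic length. The median length of the 73 members in the GRCm38.p6 annotation was 67.6 kb, against 25.7 kb for the 10375 tested genes with a length, and 49 members fell in the longest 2 of 5 length classes of equal size. Over these classes, from shortest to longest, the median of all genes was -0.13, -0.52, -0.81, -1.15 and -1.54. The members' medians were 0.01, -0.44, -1.21, -2.06 and -1.71, over 2, 7, 15, 23 and 26 genes. The first of these classes holds 2 members only, Kat2a and Setd6. In the class from 35.6 to 81.0 kb 18 of 23 members were called lower, where 55.1% of all genes in it were, and in the longest class 21 of 26, where 66.5% were. Spearman's rho between change and length was -0.34 over the 73 members and -0.36 over all genes, given as a description, since genes share arrays and are not replicates.

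The families differed in length as well. The median was 127.0 kb for ARID, 71.4 kb for KDM, 67.6 kb for CHD, 50.9 kb for KMT, 39.5 kb for SMARC, 38.4 kb for KAT, 36.0 kb for SETD and 27.6 kb for HDAC. The shortest member, Setd6 at 5.87 kb, and Kat5 at 8.54 kb were the 2 that were higher at an adjusted p below 0.05. Kat2a, between them in length at 7.74 kb, gave -0.55. Long members above 0 were Hdac8, 0.20 at 220.7 kb, and Setd5, 0.01 at 76.2 kb. Hdac9, the longest at 869.5 kb, changed by -1.01 ± 0.29 (SE), less than the median of its class. The part of length in the families' order was not tested.

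**Figure D5:**
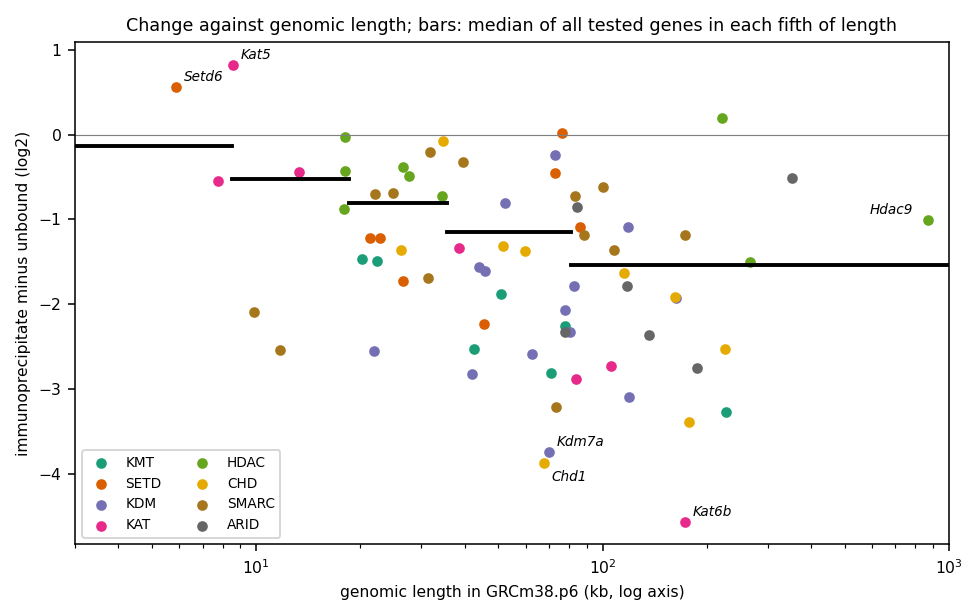
Log2 difference between immunoprecipitate and unbound fraction against genomic length (kb, log axis) for the 73 members, coloured by family; black bars give the median of all tested genes in each of 5 length classes of equal size. The bars fall from -0.13 to -1.54, and the members of the class from 35.6 to 81.0 kb, with a median of -2.06, lie mostly under their bar of -1.15.

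Partners of these enzymes and other chromatin genes were read from 10 further lists, which hold no member, and each count is to be read beside the 44.2% of all genes that were lower. 6 of the 7 tested genes for DNA methylation and its removal were lower (list median -2.43), among them Tet1 and Tet2, which oxidise methylcytosine, at least 4.43- and 6.59-fold. Of 14 other acetyltransferases and sirtuins 10 were lower (-1.80). In the order of the preparations, Ep300 gave log2 levels of 9.36, 9.04, 9.43 and 9.60 unbound and 7.72, 6.39, 6.42 and 6.42 immunoprecipitated. Crebbp gave 10.76, 10.83, 10.89 and 11.08 and 8.69, 7.96, 8.36 and 8.19 in the same order. Both of these paralogous coactivator acetyltransferases were thus lower on each immunoprecipitate array than on any unbound array, Ep300 6.14-fold and Crebbp 6.03-fold. Of 28 Polycomb genes 16 were lower (-1.28), including the methyltransferase Ezh2, at least 3.88-fold, and Asxl3, at least 2.43-fold, both under 50 on all 4 immunoprecipitate arrays.

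Lists of partner subunits stood closer to the median gene, -0.85, with shares lower near or below the 44.2% of all genes. Of 15 BAF partners 6 were lower and 1 higher (-0.82), with Bcl11b, a transcription factor found in BAF complexes, 9.44-fold and Ss18 5.17-fold lower. Of 16 partners in NuRD and other deacetylase corepressors 6 were lower (-0.54), among them Rcor1 at 4.63-fold and Gatad2b at 4.57-fold. The COMPASS partners of the KMT enzymes had 5 of 13 lower (-0.59), with Ncoa6, a subunit of the Kmt2c and Kmt2d complexes, 8.13-fold and Psip1 3.31-fold. Of 22 INO80, SRCAP and TIP60 subunits 10 were lower (-0.73), including Ino80d at least 4.43-fold and the motor Ino80 at least 2.92-fold.

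The shares lower in the remaining lists were also close to the 44.2% of all genes. Of 22 other histone methyltransferases 9 were lower and 1 higher (-0.85), with Prdm2 5.87-fold and Ehmt1 at least 4.68-fold lower. Of 10 other JmjC proteins 5 were lower and 1 higher (-1.05), with Hif1an, the asparagine hydroxylase of the hypoxia response, 4.87-fold lower. Hr was at least 1.91-fold lower, and its call rests on limma's difference of -2.65, from immunoprecipitate values that were all under 50. Of 22 readers of acetyl-lysine and other marks 11 were lower (-1.01), with the bromodomain genes Phip 9.57-fold and Brwd3 at least 2.64-fold lower. The 3 higher genes, named after their values were seen, were the BAF subunit gene Brd9, 2.00-fold (limma adjusted p = 0.0084), Smyd4, 4.43-fold (limma adjusted p = 9.1e-05), and Jmjd4, 2.51-fold (limma adjusted p = 0.0047). Where no higher count is given it was 0. Each of the 20 genes named from these lists, a pair per list with the largest fitted change, was lower in the immunoprecipitate, on the scale set by the hybridisation controls. Where such a gene has only a bound, its rank rests on values under 50. Folds above these bounds, measured on all arrays, stand in the same lists, and examples chosen after their values were seen follow. Phc3 was 5.66-fold and Bmi1 5.16-fold lower in Polycomb, Jmjd1c 4.60-fold among the JmjC proteins and Atrx 5.44-fold among the readers. Zbtb33, 5.38-fold lower, lay above the bound of Tet1 but not that of Tet2. Brd8, 4.24-fold lower, lay above the bound of Ino80 but not that of Ino80d.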

How the data were processed

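Values for 8 arrays, 1 per sample, were deposited by the authors as 1 log2 value per probe set. GCRMA, a background correction and normalization, is named in the submitters' processing notes, with no version, and the design text states that it was run within each group, followed by a recommended scaling on hybridisation controls. The log2 scale was taken from the deposited values.

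The 64 control probe sets were left out, and 1 constant per group gave the 18 hybridisation controls equal means, a shift of 0.02 log2. These controls were uneven within each group. They averaged between 10.60 and 11.32 log2 over the immunoprecipitate arrays and between 10.43 and 11.43 over the unbound arrays. The shift is thus small beside the spread of the controls that set it. The 17865 probe sets at a linear value of 50 or more on at least 4 arrays entered 1 limma 3.58.1 fit in R 4.3.3 (lmFit, eBayes with trend) without a block. Where arrays of a group lay under 50, their values were raised to 50 for the fold, which is given as at least that. The fit, its p-values and the calls used the values without this raising. Symbols came from the platform annotation, in which 34958 probe sets have 1 symbol, 932 several and 9211 none listed. A gene was read from its tested probe set with the highest mean.

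The labels name each unbound fraction by the immunoprecipitate's replicate, so numbers pair the samples. Deviations from group means correlated at 0.44, 0.33, 0.25 and 0.59 within pairs 1 to 4. The highest correlation with another number was -0.06, 0.26, 0.24 and -0.10, so these values hardly set pairs 2 and 3 apart. The replicates were separate preparations of pooled mice per the design text, and the number of arrays limits the precision. Correlations between arrays ran down to 0.938 within the immunoprecipitates and 0.922 within the unbound fractions, and up to 0.891 between fractions, and the highest of any pair was 0.983.

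A rule picked the genes to be named. Per family it took up to 4 called genes with the largest fitted change and no overlap. It also took up to 2 of the brightest not called, genes whose probe sets disagreed, and 2 genes per further list. This gave 45 members, and other members are named to account for them. Some picked members, such as Kdm1b, Kdm3b, Smarcc1 and Smarcc2, have a fold only. Array levels are also printed for Kdm6b, Smarca2 and Smarca4, which the rule did not pick. Members, pairs and lists were chosen with earlier results of these data known. The fit was tested on simulated data in which 17665 of 17865 probe sets did not change. It recovered 57.5% of 40 probe sets lowered by 1.5 log2 and 42.5% of 40 raised by 1.5. At 2 log2 it recovered 70% in either direction, with 12 false calls among the unchanged. In the data 45.1% of tested probe sets were called lower and 4.88% higher. The Benjamini-Hochberg threshold is stricter where few probe sets change, so these rates do not give the recovery of the real fit. A member not called is not shown to be unchanged. Alternatives were other scalings, filters and thresholds, the mean of probe sets, the replicate block and leaving out arrays. Plots used matplotlib 3.10.9 in Python 3.11.15.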

Additional observations from a re-analysis of the deposited data

Results flagged for a closer look

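In 8 of 90 groups of 4 arrays, 1 array stood apart from its group by Dixon's criterion at the 95% level. Chance meets it in about 1 of 20 groups of independent normal values, whereas the groups here share the same 8 arrays. The immunoprecipitate of preparation 1 was the high array in 4 of them. It read 6.06 for Kdm6a, where the others lay between 4.11 and 4.27, and 5.39 for Chd1, with the others between 3.38 and 3.67. For Smarcad1 it read 6.65, with the others at 5.48, and for Smarcd2 9.34, with the others between 8.03 and 8.22. The other immunoprecipitate arrays of Kdm6a and Smarcad1 lay under the linear minimum of 50, as did all 4 of Chd1. Immunoprecipitate replicate 2 was low for Setd4, at 5.30 against 6.20 to 6.25. Immunoprecipitate replicate 3 was high for Hdac4, at 7.40 against 6.56 to 6.63. Unbound replicate 3 was high for Kat6b, at 8.75 against 7.90 to 7.99, and low for Arid4b, at 9.97 against 10.68 to 10.73. All values are log2 levels. Why these arrays differ was not tested.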

How the results depend on the processing

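Of 73 genes, 49 were called lower and 0 higher, and of 117 probe sets 80 and 0. Median centring gave 23 and 3 genes and 44 and 6 probe sets, and quantile normalization 22 and 3, and 36 and 6; the cause was not tested. Of the 45 members picked by the rule above, 33 and 34 kept direction and call under these. By construction a 4-fold threshold left 24 genes and 46 probe sets lower, and no fold threshold called 2 genes and 3 probe sets higher. With no filter all 83 genes were tested, 52 were lower and 1, Hdac7, was higher, with 4 probe sets higher; all 4 lay under 50 on all arrays. Leaving out 1 array gave 43 to 51 genes and 70 to 85 probe sets lower, and 0 to 1 genes and 0 to 1 probe sets higher. The 1 was Kat5, without unbound replicate 1, and it was also called without preparation 1 (1 gene and 1 probe set higher). Calls lost when 1 array was left out were of Setd2, Setd4, Kdm2b, Kdm5c, Hdac9, Smarca2 and Smarcd1. Poly-A controls, which averaged between 7.17 and 10.55 log2 over unbound arrays, were unevenly bright. Of the 45 members, scaling on them reversed Setd6 (-1.40), Kat5 (-1.15) and Setd5 (-1.95). Hdac8, which is not among the 45 and gave 0.20 on the hybridisation controls, was reversed as well. All 9 HDAC genes were below 0 on the poly-A controls. The mean of probe sets gave -1.14 for Setd5. The replicate block gave 49 genes lower (44.8% of all genes) and changed no member's call. The exact test, which could pass only with at least 15 of 26 pairs at its smallest p and had 9, called 0 pairs, and limma on the same differences, added after seeing the data, 13. Other counts stayed within 1.5 times.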
